A study of Mus musculus with 8 samples.

Results

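The unfolded protein response and the folding machinery of the endoplasmic reticulum (ER) were followed through 36 genes, picked by symbol from the 22075 genes of the deposited table. The 36 genes comprised the 3 stress sensors with the factor XBP1, 10 ER chaperones and cochaperones, 6 lectin chaperones and disulfide isomerases, 9 genes of ER-associated degradation, and 7 genes of translocation into the ER and COPII export from it. RNA had been sequenced from mouse lung ILC2s (group 2 innate lymphoid cells), which lack antigen receptors and secrete type 2 cytokines, purified from C57BL/6 mice after a short exposure to papain. All cells carried the floxed Stat3 alleles (Stat3fl/fl) and had been cultured with 10 ng/ml IL-2 for about 5 days. The groups were STAT3-KO cells (Stat3fl/fl with Vav-iCre, a Cre made in blood cells) given 10 ng/ml IL-33 for 2 days, WT cells (Stat3fl/fl without Cre) given the same IL-33, STAT3-KO control cells and WT control cells, with 2 libraries in each of the 4 groups. The labels do not describe the control medium during those days, and an effect of Vav-iCre itself cannot be told apart from that of losing STAT3. The labels also do not say whether the libraries of a group came from separate mice or cultures, so the p-values measure only the spread between these libraries, which may be technical.

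Proteins bound for secretion enter the ER through the SEC61 channel, are folded there by chaperones, lectins and disulfide isomerases, and leave in COPII-coated vesicles, while misfolded chains are drawn back out and degraded. When unfolded chains pile up, the sensors IRE1 (gene Ern1), ATF6 and PERK (gene Eif2ak3) start the unfolded protein response: IRE1 splices Xbp1 mRNA into the form that encodes an active factor, ATF6 is cut into one, and PERK slows translation. Cells that secrete much protein, such as plasma cells, depend on this machinery, and ILC2s stimulated by IL-33 secrete large amounts of cytokine. A level of Xbp1 mRNA in a table of this kind does not say how much of it was spliced.

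ATF6 and spliced XBP1 bind the ER stress response element (ERSE), which reads CCAAT, then 9 bases, then CCACG. The element is shown here because some of the genes through which the response is usually measured, such as Hspa5, hold it. Others, such as Herpud1, had no exact match to it in the windows searched. RefSeq promoter windows (GRCm38.p6, 250 bases before the annotated start, both strands searched) were at hand for 31 of the 36 genes, and 9 of these 31 (29.0%) held an ERSE. Among the 8166 tested genes with such a window 14 did (0.171%), and 9 of those 14 belong to the 36 genes. The 36 genes were listed for their known part in this response, so that share describes the list and is no independent finding. The element stood upstream of Hspa5, Hsp90b1 (which has a pair of them), Dnajc3, Creld2, Calr, Canx, Pdia6, Syvn1 and Derl3. Stretches around 7 elements follow, 5′ to 3′ on the strand that spells the motif, with the motif letters in capitals; the last pair of lines shows an ERSE-II (ATTGG, 1 base, CCACG) and a UPRE (TGACGTGG).
Hspa5, chr2:34772005-34772063, plus strand: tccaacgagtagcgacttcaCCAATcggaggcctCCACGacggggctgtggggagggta
Hsp90b1, chr10:86705513-86705571, plus strand: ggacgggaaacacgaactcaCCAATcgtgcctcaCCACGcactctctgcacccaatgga
Dnajc3, chr14:118937807-118937865, plus strand: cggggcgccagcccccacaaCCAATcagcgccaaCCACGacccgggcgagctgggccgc
Creld2, chr15:88819500-88819558, minus strand: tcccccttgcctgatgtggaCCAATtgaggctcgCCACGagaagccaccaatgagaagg
Derl3, chr10:75893222-75893280, minus strand: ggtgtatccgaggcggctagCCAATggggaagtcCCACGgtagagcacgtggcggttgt
Herpud1 (ERSE-II), chr8:94386357-94386407, plus strand: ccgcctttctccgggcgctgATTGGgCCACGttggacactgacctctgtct
Sec24d (UPRE), chr3:123267450-123267495, plus strand: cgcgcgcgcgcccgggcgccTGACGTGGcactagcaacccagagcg

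The ERSE of Hspa5 lay 65 to 47 bases before the RefSeq start and that of Syvn1 44 to 26 bases before it, whereas that of Calr lay 162 to 144 bases before it. Herpud1 was the only one of the 31 genes with an ERSE-II (0.0735% of the tested genes) and Sec24d the only one with a UPRE (0.808%). The element upstream of Creld2 sits between Creld2 and its neighbour Alg12 on the other strand, and fell within both genes' windows, at chr15:88819520-88819538. A match is a description of the letters and says nothing of which factor bound them in these cells.

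Stat3 measured 8.03 and 9.69 FPKM (a count of fragments divided by gene length and library depth) in STAT3-KO cells with IL-33, 49.0 and 55.3 in WT cells with IL-33, 15.3 and 16.0 in STAT3-KO control cells, and 41.7 and 50.7 in WT control cells. All STAT3-KO values were below all WT values. The libraries held 15843685 to 19905817 reads, at which 3 reads in a gene of 1 kb equal 0.151 to 0.189 FPKM. The 10 ILC2 markers summed to 1713 to 1749 FPKM in STAT3-KO cells with IL-33, 4214 to 4482 in WT cells with IL-33, 3547 to 3570 in STAT3-KO control cells and 3656 to 3776 in WT control cells. T cell markers summed to at most 11.9 FPKM in any library, with Cd3e, Cd3d, Cd4, Cd8a, Cd8b1 and Cd5 under 1 FPKM in all 8. The 7 B and plasma cell markers in the table, some of which activated ILC2s also express, summed to 76.2 to 94.0, 53.9 to 62.3, 21.1 to 21.8 and 17.5 to 21.7 FPKM in the same group order, while Jchain and Mzb1 stayed under 1 FPKM everywhere. Mast cell and basophil markers summed to 7.49 to 8.68, 127 to 155, 111 to 140 and 299 to 326 FPKM. Their sum hides opposite changes. Of its 2 markers in the test described below, 1 was called higher and 1 lower with IL-33 in WT cells. In STAT3-KO cells 0 were called higher and 1 lower. NK cell and ILC1 markers summed to 4.44 to 4.98, 2.51 to 2.61, 27.7 to 29.9 and 8.78 to 10.5 FPKM. Among these, Ncr1, Klrb1c, Eomes and Klrd1 were under 1 FPKM in all 8 libraries. Markers of macrophages, dendritic cells and granulocytes summed to at most 7.28 FPKM and those of epithelial and stromal cells to 21.2 to 29.9 FPKM in any library. Mitochondrially encoded mRNAs made up 6.12% and 6.26% of all FPKM in STAT3-KO cells with IL-33, 3.33% and 2.31% in WT cells with IL-33, 6.86% and 7.13% in STAT3-KO control cells, and 6.18% and 5.55% in WT control cells, so that the WT libraries with IL-33 were the lowest. In bulk RNA, fewer cells of a type and less RNA per cell cannot be told apart, and the part of these shifts in the results was not tested.

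All 36 genes passed the filter of at least 1 FPKM in at least 2 libraries and were tested among 11877 genes with limma on log2(FPKM + 1), with Benjamini-Hochberg adjustment over all tested genes and calls at an adjusted p under 0.05. Eif2ak3 passed it only through the WT control libraries, and Derl3 only through libraries with IL-33. Those were both STAT3-KO libraries with IL-33 and WT IL-33 library 2. The IL-33 calls of Derl3, and its call as higher in STAT3-KO than in WT cells with IL-33, are therefore not independent of the filter. They are counted below. Differences are on that log2 scale, with their standard errors, and understate the change of genes near 1 FPKM.

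The summed level of the 36 genes was 3999 and 4054 FPKM in STAT3-KO cells with IL-33, 4848 and 4859 in WT cells with IL-33, 3018 and 2990 in STAT3-KO control cells, and 3214 and 3114 in WT control cells. Both genotypes thus carried more ER folding mRNA with IL-33 than in control, and the WT libraries carried the most. As a share of all FPKM the genes made up 1.08% and 1.16%, 1.44% and 1.45%, 0.922% and 0.926%, and 0.970% and 0.969% in the same order. Lectin chaperones and disulfide isomerases supplied the largest part in every library. A single isomerase, Pdia3, accounted for 974 to 1101 FPKM of the sum in all 8 libraries.

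**Figure D1:**
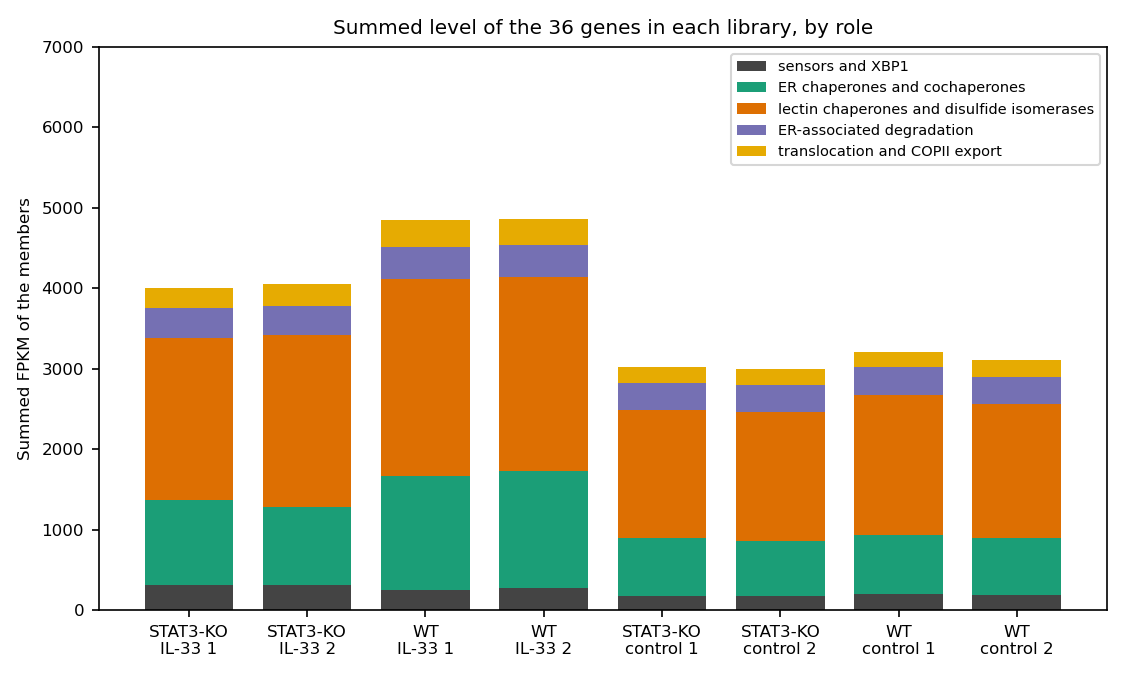
Summed FPKM of the 36 genes in each of the 8 libraries, stacked by role. The WT libraries with IL-33 reach 4848 and 4859, the STAT3-KO libraries with IL-33 3999 and 4054, and the control libraries lie between 2990 and 3214.

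In STAT3-KO cells IL-33 raised 17 of the 36 genes and lowered 4, against 24 raised and 1 lowered in WT cells. Over all tested genes 20.4% were called higher and 30.6% lower in STAT3-KO cells, and 14.5% higher and 21.6% lower in WT cells. The median difference of the 36 genes was 0.28 in STAT3-KO cells and 0.59 in WT cells, beside medians of -0.18 and -0.14 over all tested genes. Of the 24 genes raised in WT cells, 16 were also raised in STAT3-KO cells, 2 were lowered there (Atf6 and Sec24d) and 6 were not called. For 28 of the 36 genes the fitted response was smaller in STAT3-KO than in WT cells, and for 8 it was larger. Over all 11877 tested genes it was larger in STAT3-KO cells for 5796. Without STAT3-KO control library 2, fewer of all tested genes were called for IL-33 in STAT3-KO cells, and the 36 genes followed. Leaving out STAT3-KO control library 2 reduced the 17 raised and 4 lowered genes of STAT3-KO cells to 11 and 1.

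Set against WT cells with IL-33, STAT3-KO cells with IL-33 had 16 of the 36 genes lower and 2 higher, where 16.4% of all tested genes were lower and 16.3% higher. The median of the 36 genes was -0.36 and that of all tested genes 0.01. Between the control cultures of STAT3-KO and WT cells 0 of the 36 genes were called by limma, where 0.253% of all genes were called higher and 0.21% lower. An unadjusted p under 0.05 was reached by 0 of the 36 genes, beside 1106 of all 11877 tested genes. The fitted control differences of the 36 genes ran between -0.45 (Eif2ak3) and 0.53 (Derl3). The difference between the IL-33 responses themselves, STAT3-KO minus WT, was called lower for 8 of the 36 genes and higher for 1, where 8.43% and 6.72% of all tested genes were called. These comparisons share libraries, so that a high value in the WT libraries with IL-33 enters several of them. Leaving out a library also changed the lower calls over all tested genes. They became fewer in each fit named below, except that without WT control library 2, where they became more. The count of 16 lower genes became 9 without WT IL-33 library 2. The 8 genes with a smaller response in STAT3-KO cells became 3 with the first STAT3-KO control library left out, 3 with the first WT IL-33 library left out, 6 without STAT3-KO IL-33 library 2 or WT control library 2, and 5 without any other library.

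**Figure D2:**
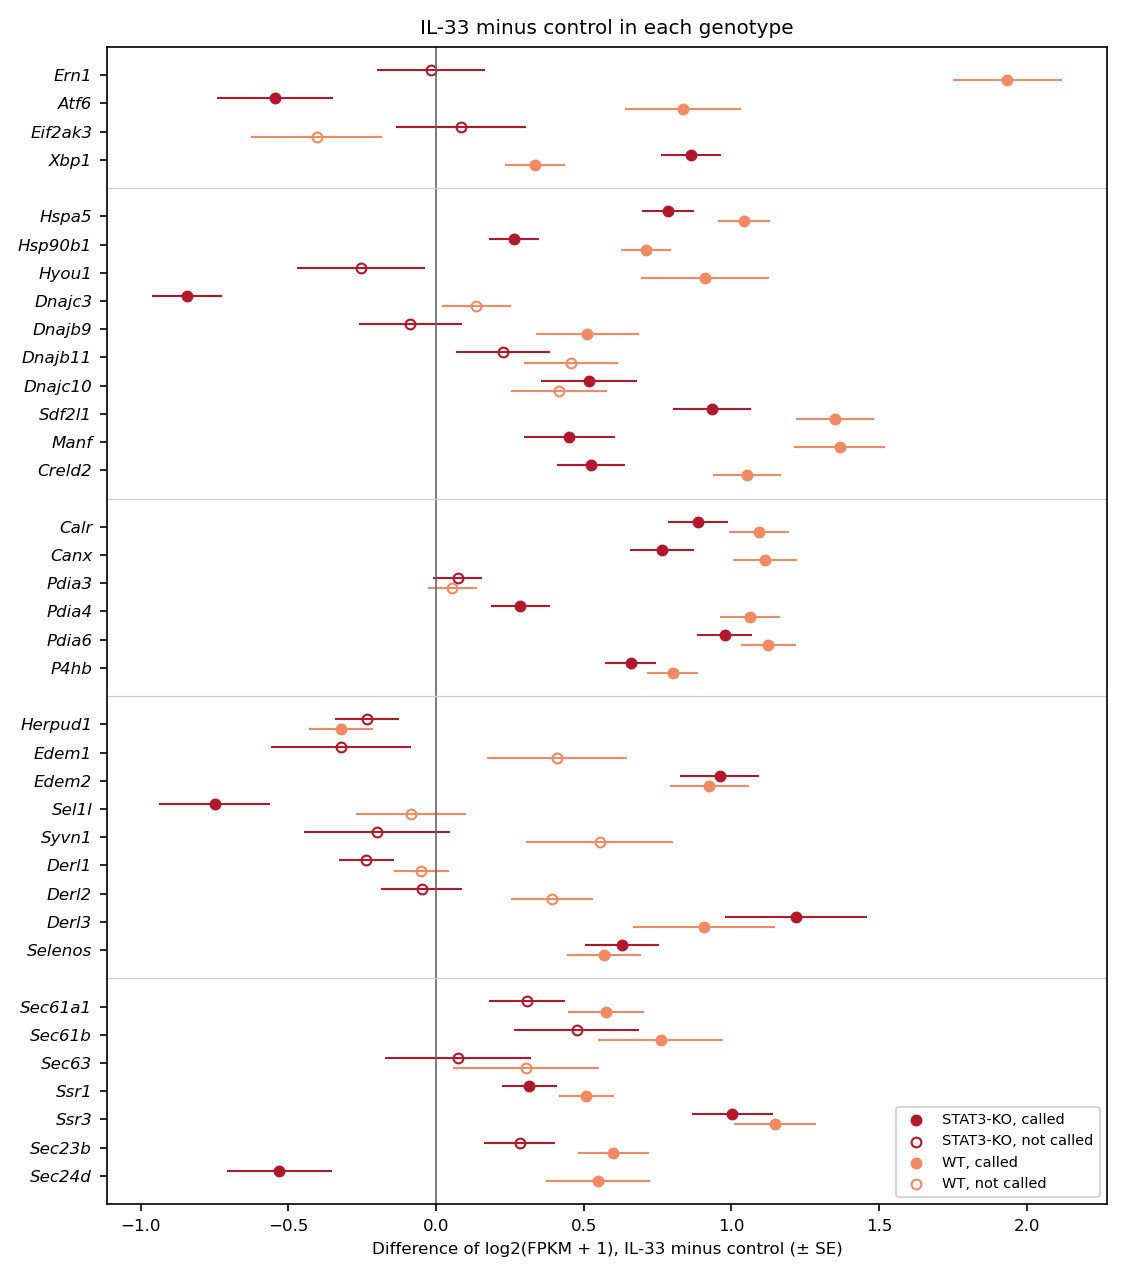
Difference of log2(FPKM + 1) between IL-33 and control for each of the 36 genes, in STAT3-KO cells (dark) and WT cells (light), with the standard error of limma; filled points were called. Most genes lie right of 0 in both genotypes. Ern1, Atf6, Hyou1, Dnajc3, Dnajb9, Edem1, Syvn1, Derl2 and Sec24d lie right of 0 in WT cells and at or left of it in STAT3-KO cells.

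Of the 3 sensors, Ern1 and Atf6 were lower in STAT3-KO than in WT cells with IL-33, and Eif2ak3 was not called. Ern1, which encodes IRE1, measured 3.94 and 5.19 FPKM in STAT3-KO cells with IL-33, 18.2 and 18.6 in WT cells with IL-33, 4.71 and 4.49 in STAT3-KO control cells, and 3.51 and 4.73 in WT control cells. Only the WT libraries with IL-33 stood apart, and the other 6 overlapped. The IL-33 difference of Ern1 was -0.02 ± 0.18 in STAT3-KO cells (limma adjusted p = 0.945) and 1.93 ± 0.18 in WT cells (adjusted p = 0.00013), a 4.47-fold rise of the mean FPKM. The difference of those responses was -1.95 ± 0.26 (adjusted p = 0.00304), which passed the threshold in 15 of 15 alternatives. Ern1 lies on the minus strand of GRCm38 chromosome 11, 106394650 to 106487852.

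Atf6, the sensor cut in the Golgi to release a transcription factor, measured 2.32 and 3.27 FPKM in STAT3-KO cells with IL-33, 12.0 and 9.74 in WT cells with IL-33, 4.93 and 4.09 in STAT3-KO control cells, and 5.25 and 6.02 in WT control cells. With IL-33 it was lowest in STAT3-KO and highest in WT cells, with no overlap between the groups. It fell by 0.55 ± 0.20 in STAT3-KO cells (adjusted p = 0.0461) and rose by 0.84 ± 0.20 in WT cells (adjusted p = 0.0117), and the responses differed by -1.38 ± 0.28 (adjusted p = 0.0143). The fall in STAT3-KO cells ran between -0.77 and -0.08 over 16 alternatives and passed the threshold in 6 of them. With IL-33 the STAT3-KO minus WT difference of -1.65 ± 0.20 (adjusted p = 0.000549) passed in all 16.

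Eif2ak3, which encodes PERK, was scarce, with 0.692 and 0.906 FPKM in STAT3-KO cells with IL-33, 0.667 and 0.826 in WT cells with IL-33, 0.780 and 0.610 in STAT3-KO control cells, and 1.05 and 1.60 in WT control cells. These values stand for 59 to 153 reads a library, and the WT control libraries were the highest. No comparison called it: the IL-33 difference was 0.09 ± 0.22 in STAT3-KO cells (adjusted p = 0.77) and -0.40 ± 0.22 in WT cells (adjusted p = 0.183).

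Xbp1 had the opposite order of genotypes from Ern1 with IL-33. It measured 299 and 302 FPKM in STAT3-KO cells with IL-33, 214 and 248 in WT cells with IL-33, 161 and 168 in STAT3-KO control cells, and 191 and 174 in WT control cells. STAT3-KO cells with IL-33 were the highest of the groups, and the STAT3-KO control cells the lowest. Its IL-33 difference was 0.86 ± 0.10 in STAT3-KO cells (adjusted p = 0.000247) and 0.33 ± 0.10 in WT cells (adjusted p = 0.0325). The responses differed by 0.53 ± 0.14 (adjusted p = 0.0417), and Xbp1 was the only gene of the 36 called with a larger response in STAT3-KO cells. That call passed in 6 of 15 alternatives, with values between 0.40 and 0.64, while the rise in STAT3-KO cells passed in 16 of 16 and the rise in WT cells in 9 of 16. Xbp1 lies on GRCm38 chromosome 11, 5520659 to 5525893.

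**Figure D3:**
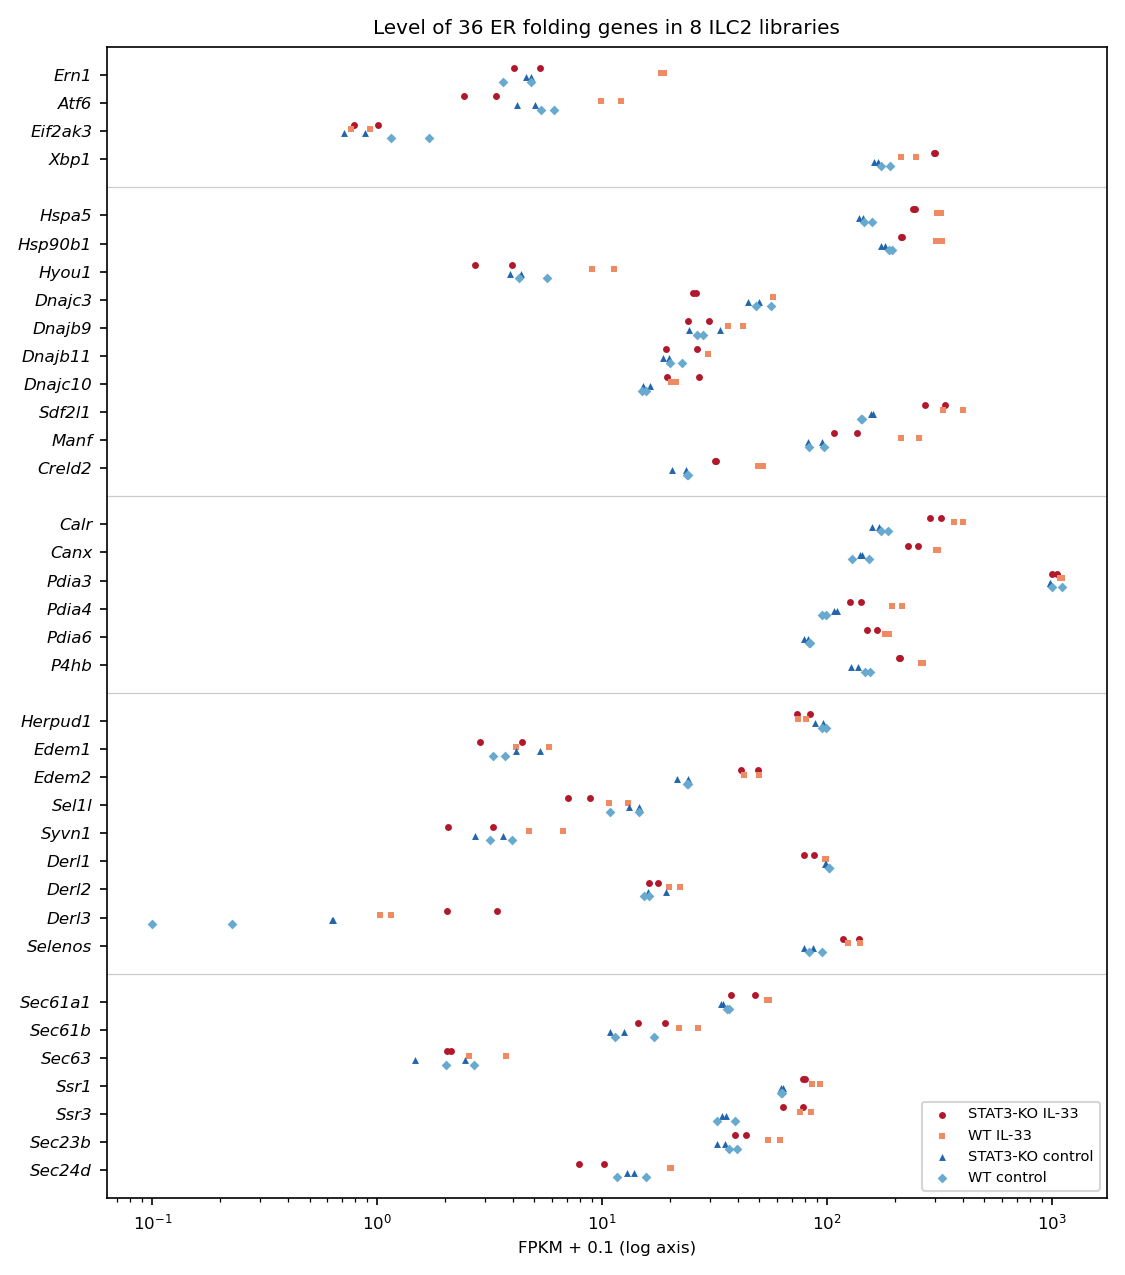
FPKM (plus 0.1, log axis) of the 36 genes in all 8 libraries, ordered by role; circles and squares are STAT3-KO and WT cells with IL-33, triangles and diamonds STAT3-KO and WT control cells. Ern1, Atf6 and Hyou1 are highest in the WT libraries with IL-33, Xbp1 is highest in STAT3-KO cells with IL-33, and Pdia3 stays between 974 and 1101 FPKM.

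Among the 10 ER chaperones and cochaperones, IL-33 raised 6 and lowered 1 in STAT3-KO cells and raised 7 in WT cells. The shares to set beside this and the later counts by role are those over all tested genes. IL-33 raised 20.4% and lowered 30.6% of them in STAT3-KO cells, and raised 14.5% and lowered 21.6% in WT cells. With IL-33, 16.4% of them were lower and 16.3% higher in STAT3-KO than in WT cells. Hspa5, which encodes BiP, the HSP70 of the ER that holds the sensors inactive, measured 247 and 241 FPKM in STAT3-KO cells with IL-33, 307 and 321 in WT cells with IL-33, 144 and 139 in STAT3-KO control cells, and 159 and 145 in WT control cells. Both groups with IL-33 lay above both control groups, and WT lay above STAT3-KO within IL-33. The response was 0.78 ± 0.09 in STAT3-KO cells (adjusted p = 0.000199) and 1.04 ± 0.09 in WT cells (adjusted p = 6.97e-05), passing in 16 of 16 alternatives each. The difference between those responses, -0.26 ± 0.13, was not called (adjusted p = 0.192), although the level with IL-33 was lower in STAT3-KO cells (-0.36 ± 0.09, adjusted p = 0.0147). Without WT IL-33 library 2 that last difference of Hspa5 was -0.33 and missed the threshold (adjusted p = 0.084). Hspa5 lies on GRCm38 chromosome 2, 34771970 to 34777547.

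Hsp90b1, the HSP90 of the ER, measured 214 and 212 FPKM in STAT3-KO cells with IL-33, 323 and 303 in WT cells with IL-33, 182 and 174 in STAT3-KO control cells, and 194 and 187 in WT control cells. The STAT3-KO values with IL-33 stood nearer to the control libraries than to the WT values with IL-33. Its response was 0.26 ± 0.08 in STAT3-KO cells (adjusted p = 0.0302) and 0.71 ± 0.08 in WT cells (adjusted p = 0.000435), a difference of -0.45 ± 0.12 (adjusted p = 0.0396). The rise in STAT3-KO cells was kept in 10 of 16 alternatives. The difference between responses held in 5 of 15 alternatives and was lost, at values between -0.56 and -0.40, without any single one of the 8 libraries. The lower level with IL-33, -0.55 ± 0.08 (adjusted p = 0.0018), held in all 16.

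Manf, a secreted protein of the ER lumen that protects stressed cells, measured 136 and 107 FPKM in STAT3-KO cells with IL-33, 256 and 213 in WT cells with IL-33, 94.8 and 81.7 in STAT3-KO control cells, and 97.1 and 83.1 in WT control cells. Its response was 0.45 ± 0.15 in STAT3-KO cells (adjusted p = 0.0382) and 1.37 ± 0.15 in WT cells (adjusted p = 0.000337), and these differed by -0.92 ± 0.22 (adjusted p = 0.0266), a call kept in 10 of 15 alternatives. The rise in STAT3-KO cells was kept in 11 of 16. WT cells with IL-33 were therefore the only group far from the rest for this gene. Creld2, another secreted protein induced by ER stress, had a like order of groups, with 31.7 and 32.1 FPKM, 49.2 and 51.7, 23.6 and 20.2, and 23.9 and 23.7. With IL-33 it was lower in STAT3-KO than in WT cells (-0.64 ± 0.12, adjusted p = 0.00366), while the difference between its responses was not called (-0.53 ± 0.16, adjusted p = 0.062). Alg12, the mannosyltransferase gene that shares the ERSE with Creld2 and is named after its values were seen, measured 4.05 to 6.23 FPKM in all 8 libraries and was not called in any comparison.

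Sdf2l1, a partner of BiP, rose in both genotypes (0.93 ± 0.13 in STAT3-KO and 1.35 ± 0.13 in WT cells), with 335 and 272 FPKM in STAT3-KO cells with IL-33, 326 and 403 in WT cells with IL-33, 159 and 156 in STAT3-KO control cells, and 142 and 141 in WT control cells. Its values with IL-33 overlapped between the genotypes, and the difference there was not called (-0.26 ± 0.13, adjusted p = 0.162). Hyou1, the large nucleotide exchange factor of BiP, measured 2.63 and 3.86 FPKM in STAT3-KO cells with IL-33, 8.89 and 11.1 in WT cells with IL-33, 4.26 and 3.78 in STAT3-KO control cells, and 4.15 and 5.60 in WT control cells. It resembled Ern1 in that the WT cells with IL-33 alone stood above the other libraries. Its responses were -0.25 ± 0.22 in STAT3-KO cells (adjusted p = 0.35) and 0.91 ± 0.22 in WT cells (adjusted p = 0.0121), differing by -1.17 ± 0.31 (adjusted p = 0.037), and that difference was kept in 7 of 15 alternatives. The lower level in STAT3-KO cells with IL-33, -1.38 ± 0.22 (adjusted p = 0.00196), was kept in 16 of 16.

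The J-domain cochaperones of BiP did not move as a block. Dnajc3, which encodes P58IPK, an inhibitor of PERK, measured 25.3 and 26.1 FPKM in STAT3-KO cells with IL-33, 57.3 and 57.3 in WT cells with IL-33, 44.3 and 49.7 in STAT3-KO control cells, and 48.0 and 56.4 in WT control cells. The STAT3-KO libraries with IL-33 lay far below the other 6. The response was -0.84 ± 0.12 in STAT3-KO cells (adjusted p = 0.000612) and 0.14 ± 0.12 in WT cells (adjusted p = 0.389), and these differed by -0.98 ± 0.17 (adjusted p = 0.00783). Both the fall and the difference between responses passed in every alternative run. Dnajc3 had an ERSE, as had Hspa5 and Hsp90b1, and was the only ERSE gene lowered by IL-33.

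Dnajb9, a cochaperone that brings BiP to IRE1, measured 24.0 and 29.7 FPKM in STAT3-KO cells with IL-33, 42.1 and 36.2 in WT cells with IL-33, 33.3 and 24.3 in STAT3-KO control cells, and 26.2 and 28.0 in WT control cells. It was called at the edge, higher with IL-33 in WT cells (adjusted p = 0.0498) and lower in STAT3-KO than in WT cells with IL-33 (adjusted p = 0.0472), and those calls held in 8 and 7 of 16 alternatives. Dnajb11 was not called in any comparison, with 26.4 and 19.2 FPKM in STAT3-KO cells with IL-33 and 29.4 and 29.5 in WT cells with IL-33. Dnajc10, a reductase with a J domain, rose by 0.52 ± 0.16 in STAT3-KO cells (adjusted p = 0.0279, kept in 10 of 16 alternatives), beside 0.42 ± 0.16 in WT cells (adjusted p = 0.0777).

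Of the 6 lectin chaperones and disulfide isomerases, 5 rose with IL-33 in both genotypes (Pdia4 in STAT3-KO cells only at an adjusted p of 0.0422), and 4 of the 6 were lower in STAT3-KO than in WT cells with IL-33. The lectin Calr (calreticulin) measured 285 and 322 FPKM in STAT3-KO cells with IL-33, 402 and 368 in WT cells with IL-33, 158 and 169 in STAT3-KO control cells, and 173 and 187 in WT control cells. Its membrane-bound counterpart Canx (calnexin) measured 228 and 253, 309 and 303, 140 and 143, and 129 and 154 in the same order. For both, the order was WT with IL-33, then STAT3-KO with IL-33, then the control libraries. Their responses of 0.89 ± 0.10 and 0.76 ± 0.11 in STAT3-KO cells and of 1.09 ± 0.10 and 1.11 ± 0.11 in WT cells passed in 16 of 16 alternatives. The lower levels in STAT3-KO cells with IL-33 (-0.34 ± 0.10, adjusted p = 0.0323 for Calr, and -0.35 ± 0.11, adjusted p = 0.0379 for Canx) were each kept in 9 of 16.

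The disulfide isomerases diverged among themselves. Pdia4 measured 126 and 141 FPKM in STAT3-KO cells with IL-33, 194 and 214 in WT cells with IL-33, 111 and 107 in STAT3-KO control cells, and 95.2 and 98.7 in WT control cells. Its response of 0.29 ± 0.10 in STAT3-KO cells (adjusted p = 0.0422) was smaller than the 1.06 ± 0.10 of WT cells (adjusted p = 0.000126), by -0.78 ± 0.14 (adjusted p = 0.0101), and the difference was kept in 15 of 15 alternatives. The rise in STAT3-KO cells itself was kept in 7 of 16 alternatives, with values between 0.14 and 0.50. Pdia6, by contrast, measured 167 and 151 FPKM in STAT3-KO cells with IL-33 and 180 and 187 in WT cells with IL-33, with 78.4 to 84.2 in the control libraries. Its responses of 0.98 ± 0.09 in STAT3-KO cells and 1.12 ± 0.09 in WT cells differed by -0.15 ± 0.13 (adjusted p = 0.486).

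P4hb, the classical protein disulfide isomerase, measured 211 and 209 FPKM in STAT3-KO cells with IL-33 and 266 and 261 in WT cells with IL-33, with 128 to 155 in the control libraries. It rose by 0.66 ± 0.09 in STAT3-KO cells (adjusted p = 0.000434) and by 0.80 ± 0.09 in WT cells (adjusted p = 0.000251). Pdia3, the isomerase that works with the lectins and loads MHC class I, was by far the most abundant of the 36 genes, at 997 and 1056 FPKM in STAT3-KO cells with IL-33, 1101 and 1079 in WT cells with IL-33, 974 and 976 in STAT3-KO control cells, and 1101 and 999 in WT control cells. No comparison called it, and its IL-33 differences were 0.07 ± 0.08 in STAT3-KO cells (adjusted p = 0.489) and 0.06 ± 0.08 in WT cells (adjusted p = 0.63).

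**Figure D4:**
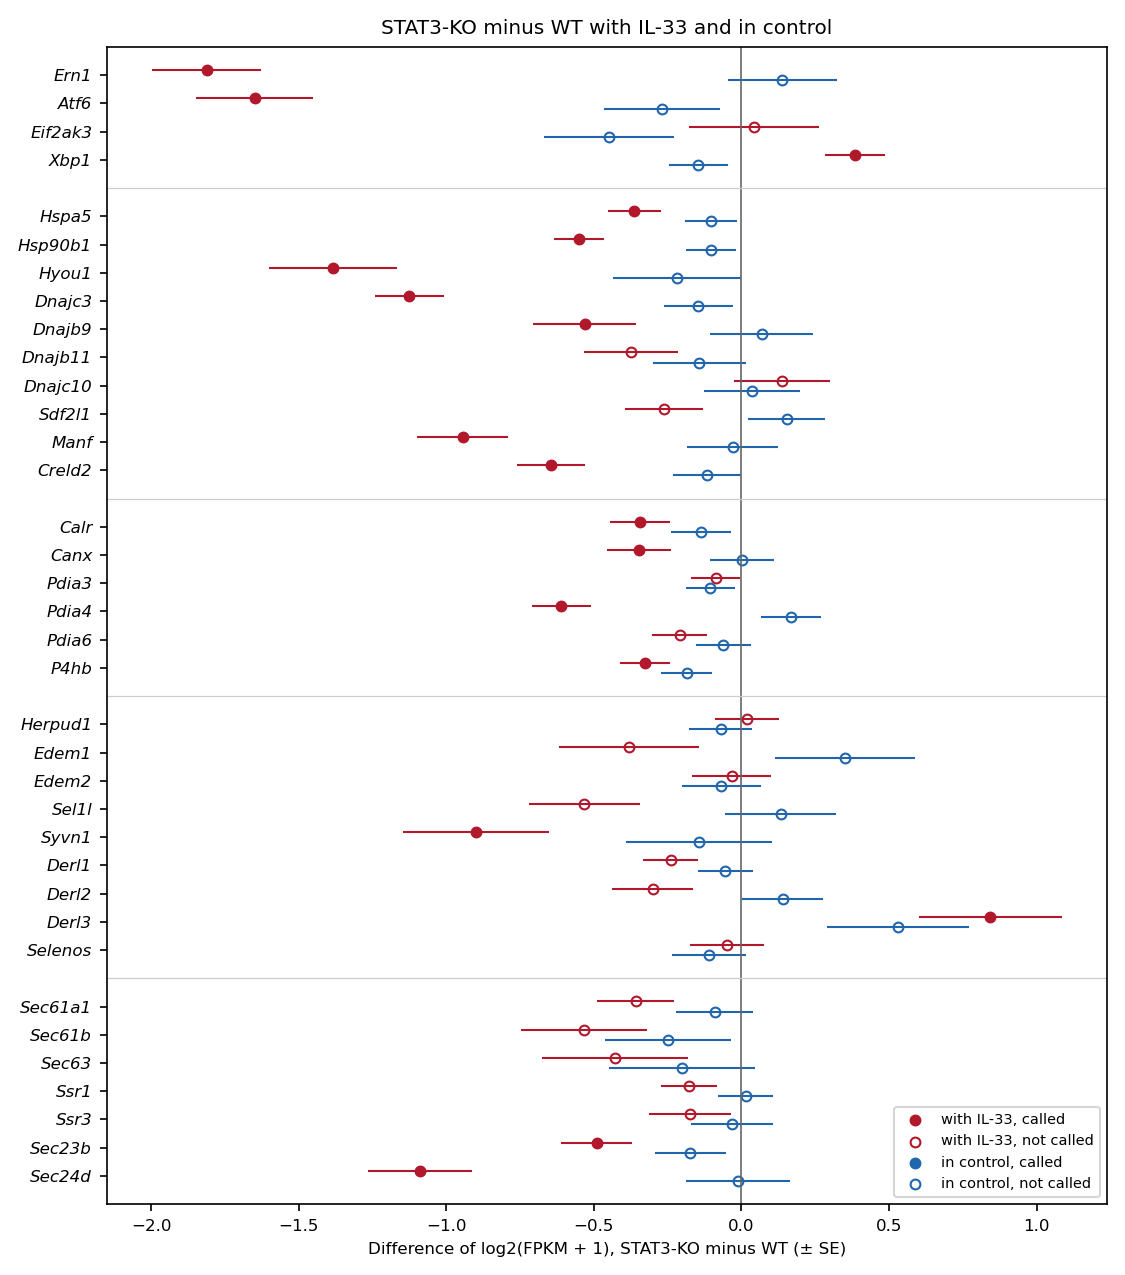
Difference of log2(FPKM + 1) between STAT3-KO and WT cells for each of the 36 genes, with IL-33 (red) and in control (blue), with the standard error of limma; filled points were called. With IL-33, 16 genes were called below 0 and 2 above it (Xbp1 and Derl3), while 0 were called in control.

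ER-associated degradation split by gene. Of its 9 genes, 3 rose and 1 fell with IL-33 in STAT3-KO cells, and 3 rose and 1 fell in WT cells. Edem2, a mannosidase-like protein that marks misfolded glycoproteins, rose by 0.96 ± 0.13 in STAT3-KO cells (49.3 and 41.3 FPKM with IL-33, 23.9 and 21.5 in control; adjusted p = 0.000598). In WT cells it rose by 0.93 ± 0.13 (42.7 and 49.9 FPKM with IL-33, 23.7 and 24.0 in control; adjusted p = 0.00119). Selenos, a selenoprotein of the retrotranslocation complex, rose by 0.63 ± 0.13 in STAT3-KO cells (139 and 117 FPKM with IL-33, 78.5 and 86.0 in control) and by 0.57 ± 0.13 in WT cells (141 and 124 FPKM with IL-33, 95.0 and 82.9 in control). For Edem2 and Selenos the genotypes overlapped within IL-33.

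Sel1l, the adaptor of the HRD1 ubiquitin ligase, measured 6.91 and 8.74 FPKM in STAT3-KO cells with IL-33, 10.6 and 12.9 in WT cells with IL-33, 13.0 and 14.5 in STAT3-KO control cells, and 10.8 and 14.4 in WT control cells. It fell by 0.75 ± 0.19 in STAT3-KO cells (adjusted p = 0.0105, kept in 13 of 16 alternatives), whereas its WT difference was -0.08 ± 0.19 (adjusted p = 0.75), and the difference between responses was not called (-0.67 ± 0.26, adjusted p = 0.124). Syvn1, which encodes HRD1 itself, measured 1.97 and 3.16 FPKM in STAT3-KO cells with IL-33 and 4.63 and 6.62 in WT cells with IL-33 (-0.90 ± 0.25, adjusted p = 0.0242), a call kept in 13 of 16 alternatives.

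Herpud1, an HRD1 partner and a usual marker of ER stress, was called lower with IL-33 in WT cells and was not called in STAT3-KO cells. It measured 73.2 and 83.6 FPKM in STAT3-KO cells with IL-33, 74.0 and 80.5 in WT cells with IL-33, 96.0 and 88.3 in STAT3-KO control cells, and 99.0 and 94.6 in WT control cells. The difference was -0.23 ± 0.11 in STAT3-KO cells (adjusted p = 0.102) and -0.32 ± 0.11 in WT cells (adjusted p = 0.0463). The WT call passed in 6 of 16 alternatives, with values between -0.38 and -0.15, and was lost without any single control library and without either WT IL-33 library.

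Derl3, a derlin of the retrotranslocation channel, was the rarest of the degradation genes, with 3.32 and 1.95 FPKM in STAT3-KO cells with IL-33, 0.933 and 1.05 in WT cells with IL-33, 0.537 and 0.532 in STAT3-KO control cells, and 0.00 and 0.127 in WT control cells. Those values stand for 108 and 69 reads, 37 and 34, 18 and 17, and 0 and 4. The 4 groups did not overlap, and STAT3-KO cells with IL-33 were the highest. Its IL-33 difference was 1.22 ± 0.24 in STAT3-KO cells (adjusted p = 0.00354) and 0.91 ± 0.24 in WT cells (adjusted p = 0.0193). As Derl3 passed the filter only through libraries with IL-33, those calls are not independent of it. With IL-33 it was higher in STAT3-KO than in WT cells by 0.84 ± 0.24 (adjusted p = 0.0279), a call kept in 10 of 16 alternatives. That call is not independent of the filter either, which both STAT3-KO libraries with IL-33 passed on their own. Derl1, Derl2 and Edem1 were not called in any comparison, and Derl1 ran between 78.9 and 102 FPKM in the 8 libraries.

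Of the 7 translocation and export genes, IL-33 raised 2 and lowered 1 in STAT3-KO cells and raised 6 in WT cells. Ssr3, a subunit of the translocon-associated TRAP complex, measured 63.7 and 78.1 FPKM in STAT3-KO cells with IL-33, 84.3 and 75.4 in WT cells with IL-33, 33.9 and 35.4 in STAT3-KO control cells, and 32.4 and 38.8 in WT control cells. It rose by 1.00 ± 0.14 in STAT3-KO cells (adjusted p = 0.000569) and by 1.15 ± 0.14 in WT cells (adjusted p = 0.000472), with the genotypes overlapping within IL-33. Ssr1, another subunit of that complex, rose by 0.32 ± 0.09 in STAT3-KO cells (adjusted p = 0.0214, kept in 12 of 16 alternatives) and by 0.51 ± 0.09 in WT cells (adjusted p = 0.00383). Of the SEC61 channel genes, Sec61a1 measured 37.3 and 47.8 FPKM in STAT3-KO cells with IL-33, 55.0 and 53.9 in WT cells with IL-33, and 33.7 to 36.6 in the control libraries. Its rise passed in WT cells (0.57 ± 0.13, adjusted p = 0.00959) and its STAT3-KO difference of 0.31 ± 0.13 did not (adjusted p = 0.0768). Sec61b was called in WT cells alone as well (0.76 ± 0.21, adjusted p = 0.0237), and Sec63 at 1.38 to 3.64 FPKM was called nowhere. For neither Sec61b nor Sec63 were the responses called as different between the genotypes. With the length trend described below removed, the rise of Sec61a1 passed in both genotypes, at 0.66 in STAT3-KO and 0.73 in WT cells.

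Sec24d, a cargo-binding coat subunit, measured 7.83 and 10.1 FPKM in STAT3-KO cells with IL-33, 19.9 and 20.2 in WT cells with IL-33, 13.7 and 12.8 in STAT3-KO control cells, and 11.5 and 15.6 in WT control cells. Within IL-33 the STAT3-KO libraries lay below, and the WT libraries above, all 4 control libraries. It fell by 0.53 ± 0.18 in STAT3-KO cells (adjusted p = 0.0342, kept in 8 of 16 alternatives) and rose by 0.55 ± 0.18 in WT cells (adjusted p = 0.0404, kept in 9 of 16). The responses differed by -1.08 ± 0.25 (adjusted p = 0.0238, kept in 8 of 15), and the level with IL-33 was lower in STAT3-KO cells by -1.09 ± 0.18 (adjusted p = 0.00231, kept in 16 of 16). Sec23b, the partner subunit, measured 38.7 and 43.6 FPKM in STAT3-KO cells with IL-33, 54.7 and 61.8 in WT cells with IL-33, and 32.2 to 39.6 in the control libraries. It was lower in STAT3-KO than in WT cells with IL-33 by -0.49 ± 0.12 (adjusted p = 0.015).

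The 9 ERSE genes had a median IL-33 difference of 0.76 in STAT3-KO cells (7 raised, 1 lowered) and 1.04 in WT cells (7 raised). The other 22 genes with a promoter window, which include Herpud1 with its ERSE-II and Sec24d with its UPRE, had medians of 0.25 (9 raised, 2 lowered) and 0.51 (13 raised, 1 lowered). Within IL-33, 7 of the 9 ERSE genes were lower in STAT3-KO than in WT cells and Derl3 was higher, beside 6 lower and 1 higher of the 22. The difference between responses was called lower for 2 of the 9 (Hsp90b1 and Dnajc3) and for 3 of the 22. It was also called lower for 3 of the 5 genes without a window (median -0.92), which belong to neither set. Over all tested genes 16.4% were lower and 16.3% higher in STAT3-KO than in WT cells with IL-33, and 8.43% were called lower for the difference between responses. The counts of the 9, the 22 and the 5 are over genes chosen for their role, and no test was made of them.

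The lengths of the mRNAs moved with the STAT3-KO response. Over all tested genes the median IL-33 difference in STAT3-KO cells was 0.00, 0.02, -0.21 and -0.47 in 4 equal groups of genes ordered by merged exon length, shortest first, and in WT cells -0.07, -0.12, -0.17 and -0.18. The genes of the 36 that fell in STAT3-KO cells had merged exons of 5141 (Dnajc3), 6325 (Sec24d), 8555 (Sel1l) and 9231 bases (Atf6), and all lay in the longer groups. With a smooth trend on length removed from every library, a step chosen after seeing the data, Dnajc3 still fell in STAT3-KO cells (-0.60), while the values of Atf6 (-0.08), Sec24d (-0.20) and Sel1l (-0.31) missed the threshold. In the same cells Sec61a1 (0.66) and Sec23b (0.62) were then called raised and Herpud1 (-0.33) lowered, while the rise of Pdia4 (0.20) missed the threshold. Under that step 21 of the 36 genes were lower in STAT3-KO than in WT cells with IL-33 and 1 was higher, and the difference between responses was called lower for 9 and higher for 0. Of all 11877 tested genes, 1965 were then lower and 1972 higher with IL-33, and 985 and 852 for the difference between responses. Ern1, with 8173 bases, kept a difference between responses of -1.68, and Atf6 of -1.08. The differences of Hyou1 (-0.93) and Xbp1 (0.40) missed the threshold under that step, while those of Creld2 (-0.69) and Sdf2l1 (-0.56) passed it. Whether length itself plays a part in the result was not tested.

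**Figure D5:**
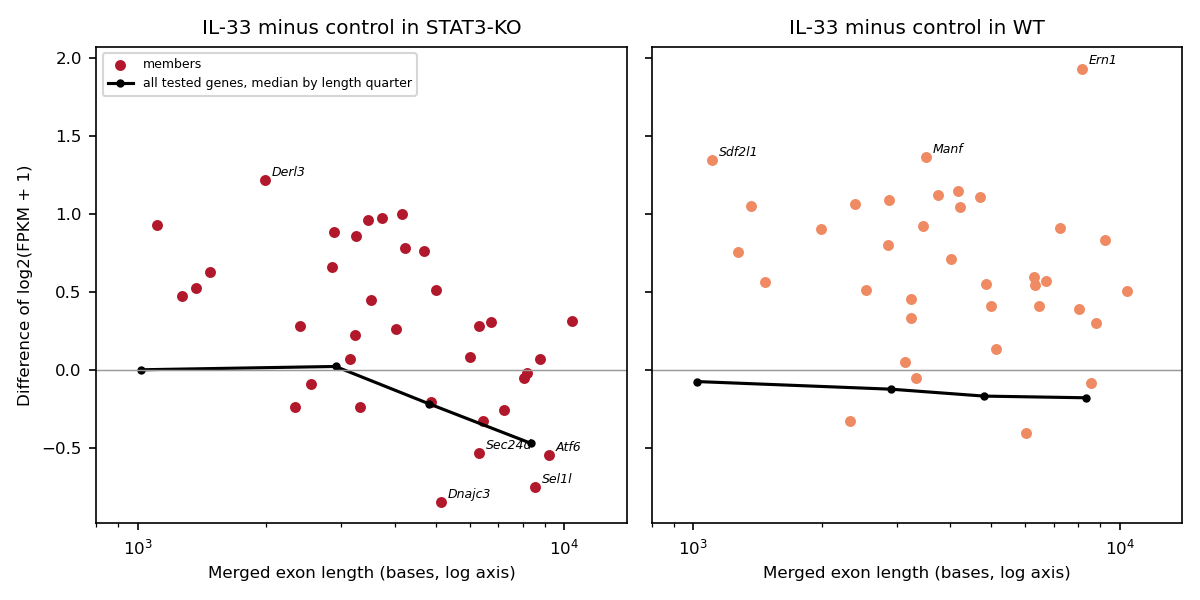
IL-33 minus control difference of log2(FPKM + 1) against merged exon length (log axis) for the 36 genes, in STAT3-KO cells (left) and WT cells (right); the line joins the medians of all tested genes in 4 equal groups by length. In STAT3-KO cells the line falls to -0.47 in the longest group and the lowered genes Dnajc3, Sec24d, Sel1l and Atf6 lie toward the long end, whereas in WT cells the line ends at -0.18.

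Other genes of the pathway, from lists of 135 genes of which 124 were tested, had smaller median differences than the 36. In STAT3-KO cells 37 of the 124 rose with IL-33 and 30 fell (median 0.10), against 38 and 13 in WT cells (median 0.25). With IL-33, 16 of the 124 were higher and 33 lower in STAT3-KO than in WT cells, where 16.3% and 16.4% of all tested genes were. For these and the lists that follow, the IL-33 shares over all tested genes were 20.4% raised and 30.6% lowered in STAT3-KO cells. In WT cells they were 14.5% and 21.6%. Among 18 oxidoreductases, Ero1l, the oxidase that recharges the disulfide isomerases, measured 68.2 and 77.7 FPKM in STAT3-KO cells with IL-33, 1289 and 1263 in WT cells with IL-33, 327 and 314 in STAT3-KO control cells, and 228 and 354 in WT control cells. It moved in opposite directions, by -2.12 ± 0.18 in STAT3-KO cells (adjusted p = 4.2e-05) and 2.16 ± 0.18 in WT cells (adjusted p = 6.27e-05). Prdx4, the ER peroxiredoxin that uses hydrogen peroxide to the same end, measured 457 and 382 FPKM in STAT3-KO cells with IL-33, 128 and 125 in WT cells with IL-33, and 49.3 to 56.4 in the control libraries. Its response was larger in STAT3-KO cells (3.02 ± 0.11) than in WT cells (1.23 ± 0.11), by 1.79 ± 0.16 (adjusted p = 0.000676).

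Of 18 signalling and PERK-arm genes, 5 rose and 6 fell with IL-33 in STAT3-KO cells, and 7 rose and 3 fell in WT cells. Atf4, the factor whose translation PERK promotes, measured 146 and 149 FPKM in STAT3-KO cells with IL-33, 213 and 194 in WT cells with IL-33, and 106 to 116 in the control libraries. Sesn2, a stress-induced sestrin, measured 100.3 and 123 FPKM in STAT3-KO cells with IL-33, 55.2 and 62.9 in WT cells with IL-33, 37.4 and 38.1 in STAT3-KO control cells, and 24.7 and 20.7 in WT control cells. Both rose in both genotypes, and with IL-33 Atf4 was lower (-0.46 ± 0.10, adjusted p = 0.00833) and Sesn2 higher (0.90 ± 0.14, adjusted p = 0.00184) in STAT3-KO than in WT cells. The translation factor subunit Eif2s1, which PERK phosphorylates, rose by 0.97 ± 0.12 in STAT3-KO cells and 1.01 ± 0.12 in WT cells, a difference of -0.04 ± 0.16.

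The glycosylation list (26 tested) had 10 raised and 3 lowered genes in STAT3-KO cells and 6 raised and 1 lowered in WT cells, among them Ddost, a subunit of the oligosaccharyltransferase (1.00 ± 0.09 in STAT3-KO and 0.74 ± 0.09 in WT cells), and Prkcsh, a subunit of glucosidase II (1.03 ± 0.12 and 0.88 ± 0.12). The signal recognition and translocon list (18 tested) had 6 raised and 5 lowered genes in STAT3-KO cells and 6 raised and 1 lowered in WT cells. There Sec61g rose by 1.52 ± 0.21 in STAT3-KO cells and 1.57 ± 0.21 in WT cells, Ssr2 by 1.15 ± 0.19 and 1.16 ± 0.19, and Tram1 fell by 1.36 ± 0.20 and 0.86 ± 0.20. The responses of Sec61g differed by -0.05 ± 0.29 and those of Ssr2 by -0.01 ± 0.27, less than their standard errors.

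Of 23 further degradation genes, 2 rose and 6 fell in STAT3-KO cells, and 4 rose and 5 fell in WT cells. The counts that fell were near the shares over all tested genes (30.6% in STAT3-KO and 21.6% in WT cells). March6, a ubiquitin ligase of the ER membrane, measured 4.21 and 5.05 FPKM in STAT3-KO cells with IL-33, 14.6 and 14.0 in WT cells with IL-33, and 6.50 to 8.19 in the control libraries, and its responses differed by -1.40 ± 0.23 (adjusted p = 0.00736). The homologue Herpud2 fell in WT cells (-0.93 ± 0.19, adjusted p = 0.00673), and Ube2j1 (-0.86 ± 0.13) and Ubxn4 (-0.54 ± 0.10) fell in STAT3-KO cells. Of 21 further export genes, 8 rose and 6 fell in STAT3-KO cells, and 7 rose and 2 fell in WT cells. Kdelr3, a receptor that returns escaped ER proteins, measured 15.3 and 15.3 FPKM in STAT3-KO cells with IL-33 and 9.20 and 9.30 in WT cells with IL-33, and at most 0.536 in any control library. It thus passed the filter only through libraries with IL-33, and its IL-33 calls are not independent of the filter. Lman1, a cargo lectin, rose in WT cells (1.20 ± 0.12, adjusted p = 0.000145) with a difference between responses of -1.01 ± 0.16 (adjusted p = 0.00656), and Ergic1 rose by 1.20 ± 0.15 in STAT3-KO cells and 0.50 ± 0.15 in WT cells.

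The chaperones of the cytosol and mitochondria, listed as a contrast, had the opposite order of genotypes from those of the ER. Of 25 tested, 19 rose and 3 fell with IL-33 in STAT3-KO cells (median 0.92), and 14 rose and 3 fell in WT cells (median 0.41). With IL-33, 16 were higher and 1 was lower in STAT3-KO than in WT cells (median 0.55), where the 36 ER folding genes had 2 higher and 16 lower (median -0.36). Hspd1, the mitochondrial HSP60, measured 461 and 502 FPKM in STAT3-KO cells with IL-33, 248 and 233 in WT cells with IL-33, 159 and 163 in STAT3-KO control cells, and 179 and 165 in WT control cells. Cct6a, a subunit of the cytosolic chaperonin, rose by 1.29 ± 0.09 in STAT3-KO cells and 0.76 ± 0.09 in WT cells. The difference between responses was above 0 for 19 of the 25, and was called higher for 9 and lower for 1. Over all 11877 tested genes it was above 0 for 5796, and called higher for 6.72% and lower for 8.43%. The gene called lower was Hspa4, an exchange factor of cytosolic HSP70, with 0.79 ± 0.11 in STAT3-KO and 1.39 ± 0.11 in WT cells (difference -0.59 ± 0.16, adjusted p = 0.0432).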

How the data were processed

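RNA-seq of 8 libraries of cultured mouse lung ILC2s was used, 2 in each of 4 groups. The authors deposited 1 FPKM value per gene and library, made with Bowtie2 and RSEM on GRCm38, per the submitters' processing notes; versions, annotation and strand setting are not given in the sources used here. The depths came from the steps of low values: 93.4% to 94.6% of those up to 100 reads were whole reads to within 0.02. The floors cover counting error only, whereas the standard errors given after ± come from the spread between libraries in the limma fit. Reads of overlapping or near-identical genes cannot be told apart.

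Values were taken as log2(FPKM + 1), with a filter of at least 1 FPKM in at least 2 libraries (11877 of 22075 genes). The values of all 8 libraries entered 1 model with a mean for each group, in limma 3.58.1 under R 4.3.3. It used eBayes with trend and had 4 residual degrees of freedom. Tests were two-sided, Benjamini-Hochberg adjusted over all tested genes and called at 0.05. FPKM are not counts, so no count model was used. The procedure was run on simulated data in which a small set of genes changed in a single group. That setting differs from these data, where many genes moved and the response varied with length, so it does not vouch for the calls. Python 3.11.15, pandas 2.3.3, numpy 2.4.6 and matplotlib 3.10.9 prepared tables and figures. Exon lengths came from GENCODE M21 (22041 genes).

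The 36 genes and all lists were chosen with earlier results of these data known. Full values were given for Ern1, Atf6, Eif2ak3, Xbp1 and Hspa5, and in each comparison for up to 3 called genes of each role and direction with the largest difference; of each other list up to 2 called genes of smallest p in each IL-33 comparison were named. Alternatives were the pseudocount 0.1, no filter, a filter on the mean, median-of-ratios scaling, scaling to a sum of 1000000, leaving out each library, the replicate number as a block, only the libraries compared and, added after seeing the data, removal of a length trend. Markers of other cells were taken from the same lists; those absent from the table were not analysed here.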

Additional observations from a re-analysis of the deposited data

Results flagged for a closer look

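The tested difference of the IL-33 responses, STAT3-KO minus WT on the log2(FPKM + 1) scale with limma, passed the adjusted threshold for 9 of the 36 genes. Of all tested genes 8.43% were called lower and 6.72% higher for it. The difference was negative for Ern1 (-1.95), Atf6 (-1.38), Hyou1 (-1.17), Sec24d (-1.08), Dnajc3 (-0.98), Manf (-0.92), Pdia4 (-0.78) and Hsp90b1 (-0.45), and positive for Xbp1 (0.53). The calls of Ern1, Dnajc3 and Pdia4 passed in all 15 alternatives. Those of Atf6, Manf, Sec24d, Hyou1, Xbp1 and Hsp90b1 passed in 13, 10, 8, 7, 6 and 5 of the 15. The signs were opposite for Ern1, the enzyme, and Xbp1, the mRNA it splices. The responses share no libraries, since each genotype had its own control libraries.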

How the results depend on the processing

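With 2 libraries a group, the counts depend on single libraries. The calls over all tested genes also mostly became fewer when a library of the compared groups was left out. Leaving out each library in turn gave 17 to 26 genes raised and 0 to 1 lowered by IL-33 in WT cells, 11 to 17 raised and 1 to 5 lowered in STAT3-KO cells, 0 to 2 higher and 9 to 17 lower in STAT3-KO than in WT cells with IL-33, and 0 to 1 higher and 3 to 6 lower for the difference between responses. The lone library of a group was assumed to vary like the other groups. Without a filter, 0 genes fell in WT cells, 2 fell in STAT3-KO cells, 1 was higher in STAT3-KO than in WT cells with IL-33, and the difference between responses was called higher for 0 and lower for 4. Median-of-ratios scaling gave 0 lowered genes in WT and 2 in STAT3-KO cells. Scaling to a sum of 1000000 gave 0 genes higher in STAT3-KO than in WT cells with IL-33 and 0 higher for the difference between responses. A pseudocount of 0.1 left 1 gene higher in STAT3-KO than in WT cells with IL-33. With the length trend removed, 0 fell in WT and 2 in STAT3-KO cells, 1 was higher in STAT3-KO than in WT cells with IL-33, and 0 were higher for the difference between responses. The cause of these shifts was not tested.

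Over all tested genes, median-of-ratios scaling moved the median IL-33 difference to -0.01 in STAT3-KO cells (3140 genes higher and 2759 lower, against 2425 and 3638) and to 0.00 in WT cells (2299 and 1863, against 1724 and 2561). Scaling to a sum of 1000000 moved it to -0.35 in STAT3-KO cells (1956 and 4196) and -0.20 in WT cells, and gave 1494 genes higher and 2223 lower in STAT3-KO than in WT cells with IL-33, against 1932 and 1944. For the difference between responses it gave 560 and 1096, against 798 and 1001. Of 1158 alternative values of called genes, 0 changed direction, 975 stayed past the threshold and 183 did not. Replicate numbers did not pair the libraries (correlations of deviations -0.062 to 0.045); with the replicate block 23 genes rose and 0 fell in WT cells, 18 rose and 3 fell in STAT3-KO cells, and 2 were higher and 16 lower in STAT3-KO than in WT cells with IL-33. The fit of only the libraries compared has no value for the difference between responses, which needs all groups.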
